A study of Bos indicus with 6 samples.

Results

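LIF, interleukin 6, their receptors and the signal they share were followed in the isthmus of the cow oviduct. The genes were 9 symbols, and they were found as the entries of the deposited isthmus values whose symbol equalled LIF, IL6, LIFR, IL6R, IL6ST, IL11RA, OSMR, STAT3 or SOCS3. They matched 10 of the 24616 entries, because IL6 is listed under 2 Ensembl identifiers. Of the 10 entries, 9 passed the filter on low values, 1 for each symbol, and the second IL6 entry did not.

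Cytokines of this family signal through IL6ST, the chain also known as gp130, together with other receptor chains. IL6ST passes the signal to Janus kinases and to the transcription factor STAT3. SOCS3 is induced by STAT3, binds the receptor complex and shuts the signal down. LIF is best known in reproduction for its part in implantation, and the isthmus is the narrow, muscular segment of the oviduct through which the early embryo passes to the uterus.

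The tissue came from 6 healthy multiparous Nelore cows (Bos indicus), with 1 RNA-seq library per cow. Before day -10 the cows were presynchronised with a GnRH agonist and a prostaglandin F2α analog, in an order that the sources give differently. All cows carried a progesterone device of 1 g from day -10, received 2 mg of estradiol benzoate when it was placed, prostaglandin F2α at its removal and again 6 h later, and the GnRH agonist buserelin on day 0, and tissue was taken on day 4. In the LF/LCL group (large follicle and large corpus luteum, n = 3) a further dose of prostaglandin was given on day -10, and GnRH followed removal of the device by 42 h. In the SF/SCL group (small follicle and small corpus luteum, n = 3) that dose was not given, and GnRH followed removal by 30 h. Per the study's methods, the LF/LCL cows sequenced were the top-ranked animals for follicle and corpus luteum size and for estradiol and progesterone, and the SF/SCL cows were the bottom-ranked, so the groups are the extremes of the animals ranked. The values are normalized counts, that is, reads per gene that the authors divided by a size factor for each library. Throughout, values of LF/LCL cows are given in the order 617, 79 and 527, and those of SF/SCL cows in the order 856, 489215 and 97.

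The library of SF/SCL cow 489215 stood apart from the other 5. Its root mean square log2 difference from each other library was 1.14 to 1.44 over the genes tested, against 0.520 to 0.853 among the remaining pairs. In it, 22.7% of the genes tested lay more than 2-fold below the mean of the other cows on the log2 scale and 11.9% lay more than 2-fold above it. Results are therefore given with and without this cow. The libraries held 23899117 to 34193164 reads on genes. Marker genes of smooth muscle, epithelium, endothelium, fibroblasts and leukocytes were present in every library, the ciliary marker PIFO was at 0 in all of them, and the summed markers of erythrocytes stayed at 25.3 or less.

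Between the groups, 0 of the 9 genes passed the threshold of an adjusted p under 0.05 (limma on log2 of the value plus 1, Benjamini-Hochberg adjustment over 15387 genes), as did 0% of all genes. Of all genes, 1333 had an unadjusted p under 0.05 with limma, the edgeR quasi-likelihood test called 0 with 1307 at an unadjusted p under 0.05, and DESeq2 called 416, none of them among the 9. Without cow 489215, 1 of the 9 genes passed, IL6R, beside 18.2% of the 15495 genes then tested. The median log2 difference of the 9 genes, SF/SCL minus LF/LCL, was -0.39 with all cows and -0.38 without cow 489215, where the median of all genes was -0.02 and 0.00. Groups that did not overlap were found for 2 of the 9 genes, STAT3 and SOCS3, against 18.1% of all genes. In the 5 libraries without cow 489215, 3 of the 9 did not overlap with SF/SCL higher (27.1% of all genes) and 1 with LF/LCL higher (24.9%). In these libraries limma gave an unadjusted p under 0.05 to 3 genes with SF/SCL higher (18% of all genes) and to 0 with LF/LCL higher (15.9%).

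**Figure D1:**
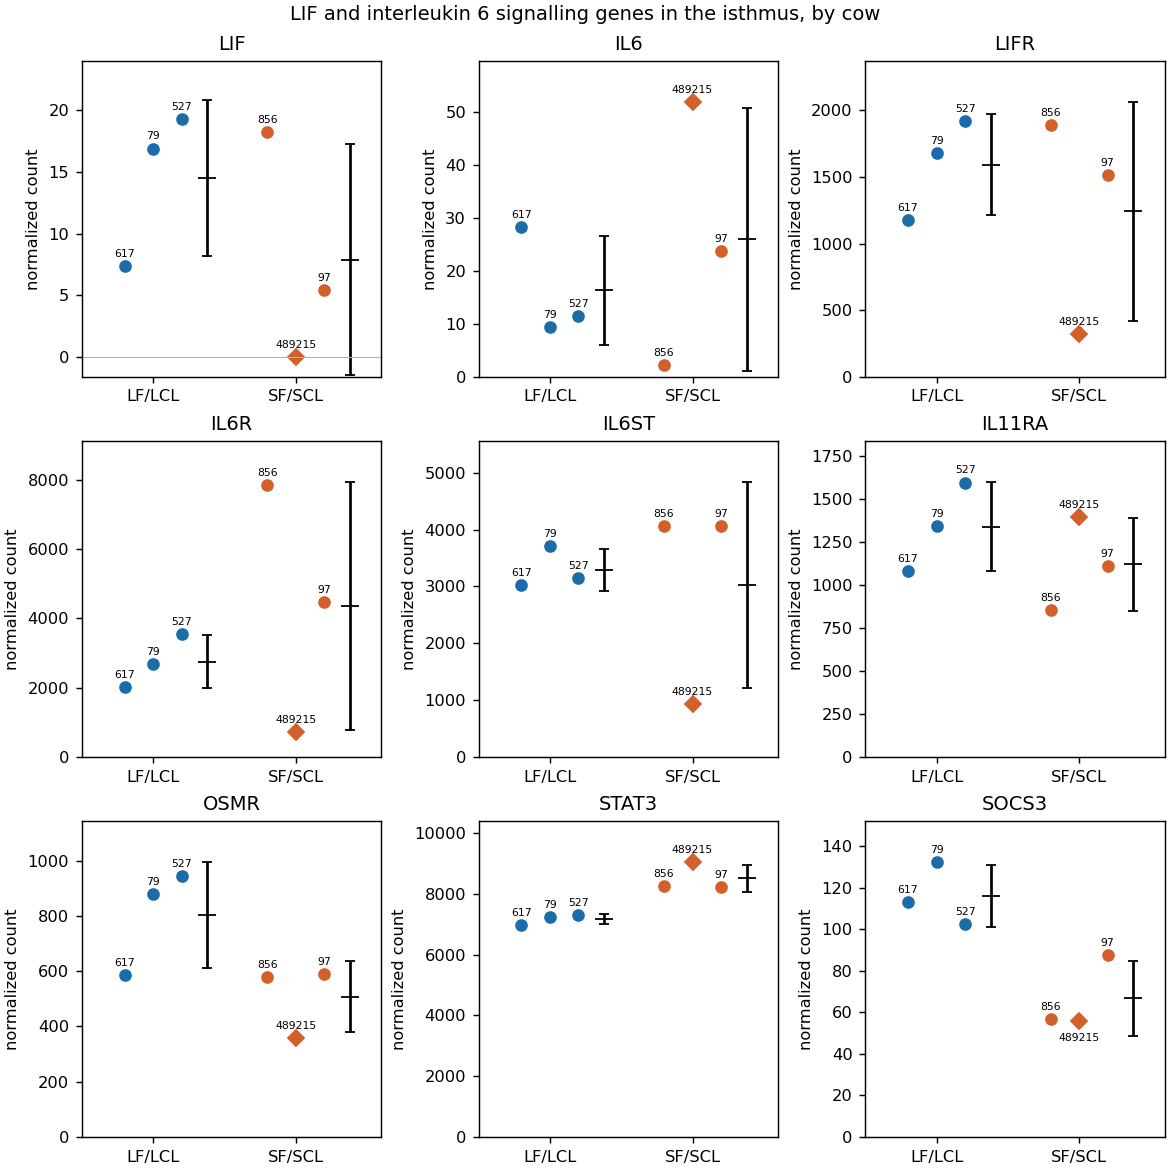
Normalized counts of the 9 genes in each cow (points, with the cow number), LF/LCL in blue and SF/SCL in orange, with cow 489215 as a diamond and the mean and SD of each group (n = 3) as a black bar. SOCS3 lies at 103 to 132 in LF/LCL and 55.9 to 87.8 in SF/SCL, while LIFR, IL6R and IL6ST are each lowest in cow 489215.

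The ligands rested on few reads. LIF (ENSBTAG00000007424), the cytokine that binds LIFR, was at 7.33, 16.9 and 19.3 normalized counts in LF/LCL cows and at 18.2, 0 and 5.42 in SF/SCL cows. These values rest on 7, 18 and 22 reads and on 24, 0 and 5 reads. The groups overlapped, since cow 856 lay between the LF/LCL cows 79 and 527, and the absence of reads was confined to cow 489215. A count of 0 there allows up to 3 reads, or 3.99 normalized counts, for counting error only, and 0.851% of the genes tested lay further below the other cows in that library.

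LF/LCL cows had a mean of 14.5 ± 6.34 for LIF and SF/SCL cows one of 7.88 ± 9.36 (SD, n = 3 each). The log2 difference of LIF was -1.54 with a standard error of 1.11 and a 95% interval of -4.20 to 1.12 (limma, Benjamini-Hochberg adjusted p = 0.795). Without cow 489215 it was -0.38, with an interval of -2.05 to 1.29 and an adjusted p of 0.740 by the same limma test. Both intervals hold differences in either direction, and with all cows the interval reaches further toward LF/LCL than toward SF/SCL.

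IL6 (ENSBTAG00000014921), which signals through IL6R and IL6ST, was at 28.3, 9.39 and 11.4 in LF/LCL cows and at 2.28, 51.9 and 23.8 in SF/SCL cows, from 3 to 39 reads. Its lowest and its highest value were both in the SF/SCL group, in cows 856 and 489215, so the LF/LCL values lay wholly inside the SF/SCL range. Its log2 difference was 0.06 with an interval of -2.51 to 2.64 (limma, adjusted p = 0.991), and without cow 489215 it was -0.79 with an interval of -3.09 to 1.51 (adjusted p = 0.608). In cow 489215, the library in which LIF had no read, IL6 lay 4.23-fold above the mean of the other cows on the log2 scale, and 0.487% of the genes tested lay further above it.

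The second IL6 entry (ENSBTAG00000046456) held 0, 1 and 2 reads in LF/LCL cows and 8, 0 and 1 in SF/SCL cows. Cow 856, the lowest for the first entry, held most of the reads of the second. The groups overlapped (exact permutation test, two-sided, p = 0.7, where 0.1 is the smallest that 3 cows against 3 allow). Whether reads were divided between the 2 entries was not tested.

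The receptor chains rested on 240 to 10355 reads per library, and LIFR, IL6R and IL6ST were each lowest in cow 489215. LIFR (ENSBTAG00000010423), the chain that binds LIF, was at 1175, 1683 and 1918 normalized counts in LF/LCL cows and at 1888, 320 and 1518 in SF/SCL cows. Cows 856 and 97 lay inside the LF/LCL range and cow 489215 lay far below it, 5.03-fold under the mean of the other cows on the log2 scale. For LIFR the log2 difference was -0.68 with an interval of -2.29 to 0.93 (limma, adjusted p = 0.859). Without cow 489215 it was 0.12 with an interval of -0.41 to 0.64 (adjusted p = 0.745), a change of sign in a difference that did not pass in either fit.

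IL6R (ENSBTAG00000018474), the chain that binds interleukin 6 and also exists in a soluble form, was at 2010, 2693 and 3562 in LF/LCL cows. In SF/SCL cows it was at 7865, 726 and 4487. Cow 489215 was the lowest of the 6 and cows 856 and 97 were the highest, so the LF/LCL cows lay between them. In a bulk library of whole tissue, fewer cells that express a gene and less of its RNA per cell cannot be told apart, and this holds for each value given here.

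With all cows the log2 difference of IL6R was 0.14, with a standard error of 0.85 and an interval of -1.90 to 2.17 (limma, adjusted p = 0.976). Without cow 489215 it was 1.15, with a standard error of 0.30 and an interval of 0.42 to 1.88, or 2.22-fold higher in SF/SCL (limma, Benjamini-Hochberg adjusted p = 0.0463). The groups then did not overlap, as for 52% of the genes tested without this cow. That call rests on 2 SF/SCL cows, at 7865 and 4487, and in the same fit 10.3% of all genes were called higher in SF/SCL. The edgeR and DESeq2 tests without cow 489215, which were added after the data had been seen, gave 1.16 with adjusted p-values of 0.0425 and 0.000942.

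IL6ST (ENSBTAG00000017745), the chain common to the family, was at 3020, 3721 and 3142 in LF/LCL cows and at 4072, 939 and 4067 in SF/SCL cows. Cows 856 and 97 were above each LF/LCL cow by a small margin, and cow 489215 was 3.81-fold below the mean of the other 5 on the log2 scale. The IL6ST difference on the log2 scale was -0.39 with an interval of -1.78 to 0.99 (limma, adjusted p = 0.898). Without cow 489215 it was 0.31 with an interval of 0.04 to 0.58, which had an unadjusted p of 0.0299 but did not pass after adjustment (limma, adjusted p = 0.105).

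The deviations of LIFR, IL6R and IL6ST in cow 489215 were toward the low end of those in that library. Lower deviations from the other cows were found for 6.54%, 6.44% and 9.85% of the genes tested. The same library had the highest sum of smooth muscle markers, 1227280 normalized counts over 8 genes, against 728721 to 847464 in LF/LCL cows and 339479 and 399048 in cows 856 and 97. Its share of reads on the 100 most abundant genes was also the highest, at 24.8% against 16.4% to 20.6%. The part of these differences in the receptor values was not tested.

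**Figure D2:**
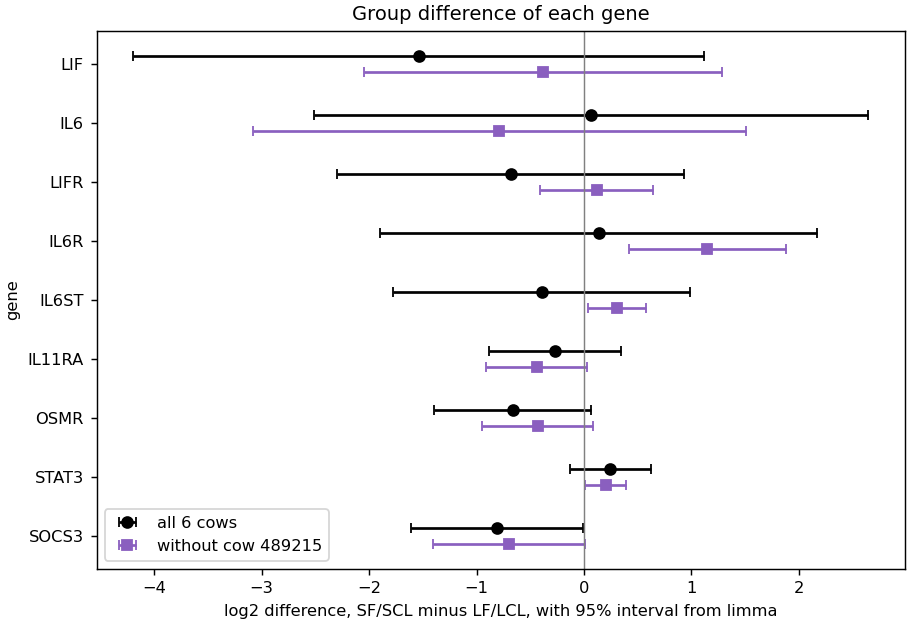
Log2 difference of each gene between the groups, SF/SCL minus LF/LCL, with its 95% interval from limma, for all 6 cows (black circles) and without cow 489215 (purple squares). Without this cow the intervals of IL6R (0.42 to 1.88), IL6ST (0.04 to 0.58) and STAT3 (0.01 to 0.39) lie above 0, and of these IL6R passed after adjustment.

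IL11RA (ENSBTAG00000014907), the receptor chain for interleukin 11, was at 1080, 1341 and 1596 in LF/LCL cows and at 854, 1394 and 1110 in SF/SCL cows. Unlike the preceding receptors it was not low in cow 489215, where 59% of the genes tested lay lower relative to the other cows. The groups overlapped. The log2 difference was -0.27 with an interval of -0.89 to 0.35 (limma, adjusted p = 0.857), and -0.44 without cow 489215 (adjusted p = 0.166).

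OSMR (ENSBTAG00000033107), the chain that pairs with IL6ST for oncostatin M, was at 585, 879 and 943 in LF/LCL cows and at 577, 358 and 588 in SF/SCL cows. The highest SF/SCL cow, 97, narrowly exceeded the lowest LF/LCL cow, 617, so the groups overlapped at their edges. The log2 difference was -0.66 with a standard error of 0.30 and an interval of -1.40 to 0.07 (limma, unadjusted p = 0.0687, adjusted p = 0.626). Without cow 489215 it was -0.43 with an adjusted p of 0.214, so OSMR was on the LF/LCL side in both fits without passing in either. In the RefSeq annotation of another Bos indicus assembly (NIAB-ARS_B.indTharparkar), LIFR and OSMR are neighbours on chromosome 20 with 0 protein-coding genes between them.

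STAT3 (ENSBTAG00000021523), the transcription factor on which the family converges, varied least. It was at 6985, 7232 and 7302 normalized counts in LF/LCL cows and at 8257, 9035 and 8229 in SF/SCL cows. The 3 SF/SCL cows were above the 3 LF/LCL cows, cow 489215 included, as were 9.51% of all genes tested. The means were 7173 ± 166 and 8507 ± 457 (SD, n = 3 each), and the exact permutation test gave p = 0.1, two-sided, the smallest this design allows.

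The log2 difference of STAT3 was 0.24 with a standard error of 0.16 and an interval of -0.13 to 0.62 (limma, adjusted p = 0.758). It was 0.20 without cow 489215, with an interval of 0.01 to 0.39 (unadjusted p = 0.0403, limma adjusted p = 0.128). The separation depended on the scaling. When the libraries were scaled by their total reads alone, cow 489215 fell to 7446 against 7788 in LF/LCL cow 527, and the groups overlapped.

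SOCS3 (ENSBTAG00000008441), the inhibitor that STAT3 induces, lay the other way. It was at 113, 132 and 103 normalized counts in LF/LCL cows and at 57.0, 55.9 and 87.8 in SF/SCL cows, with means of 116 ± 15 and 66.9 ± 18.1 (SD, n = 3 each). The groups did not overlap, with LF/LCL higher, as for 8.6% of all genes tested, and cow 489215 lay beside cow 856. They did not overlap under scaling by total reads either, where SOCS3 was 110 to 138 in LF/LCL and 46.1 to 94.7 in SF/SCL.

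The log2 difference of SOCS3 was -0.81 with a standard error of 0.34 and an interval of -1.61 to -0.01, or 1.75-fold higher in LF/LCL. In limma it alone of the 9 had an unadjusted p under 0.05, at 0.0488, where 8.66% of all genes had one, and it did not pass after Benjamini-Hochberg adjustment (adjusted p = 0.574). With edgeR on the recovered reads 0 of the 9 genes had an unadjusted p under 0.05. Without cow 489215 the difference was -0.70 (unadjusted p = 0.0518, limma adjusted p = 0.150), and in that fit 33.9% of all genes had an unadjusted p under 0.05. The exact permutation test gave p = 0.1, two-sided.

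Ratios within a library do not depend on its size factor and were added as a description, with no test, after the values had been seen. SOCS3 per 1000 counts of STAT3 was 16.2, 18.3 and 14.1 in LF/LCL cows and 6.90, 6.19 and 10.7 in SF/SCL cows. The groups did not overlap, and the mean ratio was 16.2 ± 2.11 in LF/LCL and 7.92 ± 2.41 in SF/SCL (SD, n = 3 each), which is 2.04-fold higher in LF/LCL. This separation was fixed by the values above, since SOCS3 was higher in every LF/LCL cow and STAT3 in every SF/SCL cow. It therefore adds nothing to the results of the single genes. These ratios are of read counts and were not corrected for the length of the transcripts.

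Among the receptors, LIFR to OSMR was nearly constant in LF/LCL cows, at 2.01, 1.92 and 2.03, and spread from 0.892 in cow 489215 to 2.58 in cow 97 and 3.27 in cow 856. LIFR to IL6ST moved far less in cow 489215 than either gene alone, at 0.340 there, 0.464 in cow 856, 0.373 in cow 97 and 0.389 to 0.611 in LF/LCL cows. IL6R to IL6ST was 0.666, 0.724 and 1.13 in LF/LCL cows and 1.93, 0.773 and 1.10 in SF/SCL cows. Thus the groups overlapped for all 3 of these ratios, and cow 489215 was inside the LF/LCL range for IL6R to IL6ST.

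IL11RA and OSMR behaved otherwise relative to IL6ST. IL11RA to IL6ST was 0.358, 0.360 and 0.508 in LF/LCL cows and 0.210, 1.49 and 0.273 in SF/SCL cows. OSMR to IL6ST was 0.194, 0.236 and 0.300 in LF/LCL cows and 0.142, 0.382 and 0.145 in SF/SCL cows. For both ratios cows 856 and 97 were below all LF/LCL cows and cow 489215 was the highest of the 6.

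**Figure D3:**
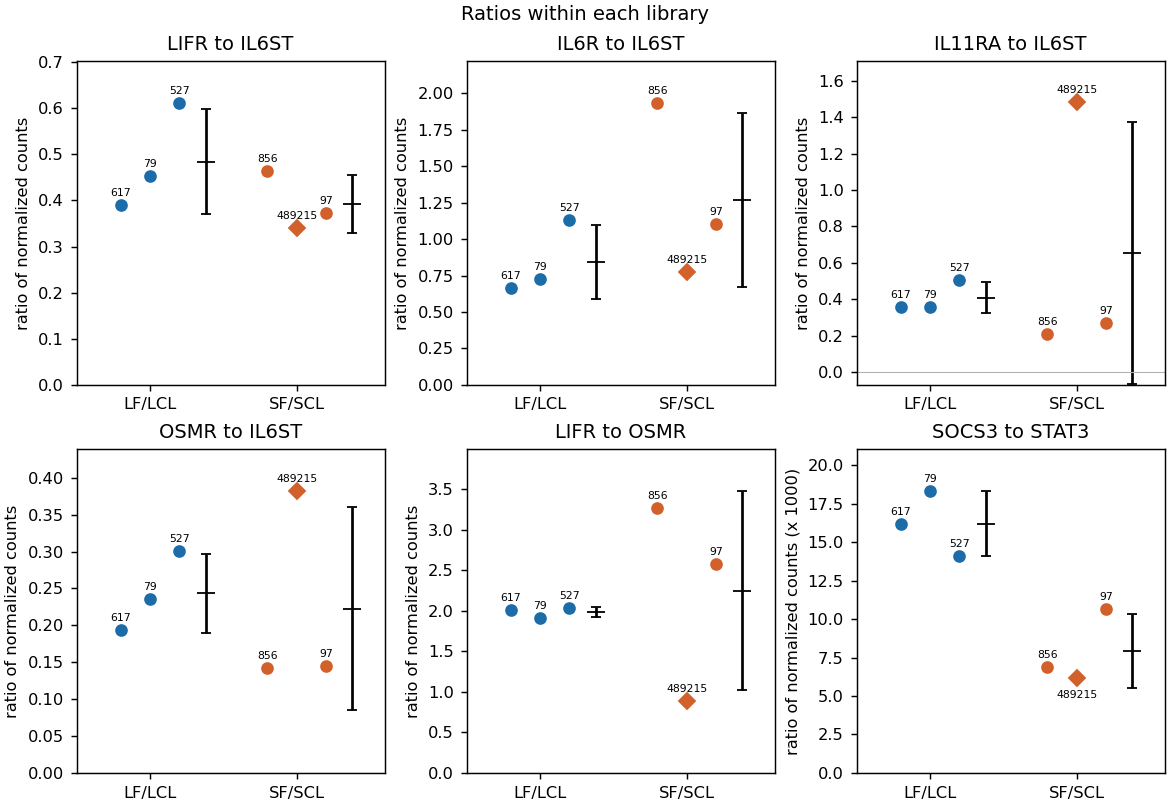
Ratios of normalized counts within each library, 1 panel per pair of genes, with LF/LCL in blue, SF/SCL in orange, cow 489215 as a diamond and the mean and SD of each group (n = 3) in black. SOCS3 per 1000 STAT3 separates the groups (14.1 to 18.3 against 6.19 to 10.7), as the values of the single genes required, and the other 5 ratios overlap.

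The 9 genes did not share 1 pattern over the 6 cows. Likeness was measured as the root mean square difference between the log2 values of a pair of genes after each was centred on its own mean, as a description over 6 libraries that share tissue and depth. The distance was not scaled, so it also grows with how much either gene varies. With all cows the closest pair was LIFR and IL6ST at 0.273, followed by OSMR and SOCS3 at 0.326, and the farthest was LIF and IL6 at 2.66. Without cow 489215 these pairs differed by 0.250, 0.347 and 1.72. LIF and IL6 were then still the farthest, but the closest were IL6ST and STAT3, followed by IL11RA and OSMR. IL6ST and STAT3 differed by 0.819 with all cows and by 0.107 without cow 489215, and IL11RA and OSMR by 0.470 and 0.141, so these 2 pairs were far apart mainly through that cow.

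Over all genes tested, the closest to STAT3 were RBM39 (0.0266), SAFB (0.0308) and MTMR14 (0.0312). Closest to SOCS3 were MGLL (0.0914), NPNT (0.108) and GPER1 (0.131), and to OSMR the growth factor gene HGF (0.0572), MAP7D3 (0.0758) and ECM2 (0.0831). IL6ST was most like IKBKAP (0.0599), TROVE2 (0.0729) and TMEM127 (0.0755), and LIFR like PPTC7 (0.0908), TRPM6 (0.0955) and FRMD3 (0.104).

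The genes closest to IL11RA were FAM172A (0.0504), CABLES1 (0.0754) and PCED1A (0.0808), and those closest to IL6R were ZBTB41 (0.186), NLRP3 (0.193) and PM20D2 (0.194). The scarce ligands had companions at larger distances, but they also varied most around their own means. The root mean square of that variation was 1.52 for LIF and 1.28 for IL6, against 0.132 for STAT3 and 0.468 for SOCS3. Larger distances of the ligands are therefore not evidence of less likeness. LIF was most like CD1A (0.270) and CALN1 (0.309), and IL6 like the chemokine gene CXCL11 (0.349), FOXA3 (0.380) and PI3 (0.445). Without cow 489215 the distances of all these named pairs ran from 0.0257 for STAT3 and RBM39 to 0.485 for IL6 and PI3.

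The rest of the pathway was read from lists of 76 further genes, of which 69 had an entry and 61 were tested. With all cows 0 of the 61 passed the adjusted threshold (limma), 2 had an unadjusted p under 0.05 with SF/SCL higher and 2 with LF/LCL higher, against 4.19% and 4.48% of all genes. Their median log2 difference was -0.01. Without cow 489215, 15 of 62 passed, 9 higher in SF/SCL and 6 higher in LF/LCL, beside 10.3% and 7.92% of all genes.

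Of 10 other ligands of the family 9 had an entry and 6 were tested. Oncostatin M (OSM) and interleukin 11 (IL11), the ligands of OSMR and IL11RA, were not tested, with mean normalized counts of 0.349 and 2.18 over the 6 cows. Cardiotrophin 1 (CTF1), which signals through LIFR, was at 72.2, 65.7 and 62.4 in LF/LCL cows and at 115, 138 and 88.9 in SF/SCL cows, without overlap (log2 0.74, limma adjusted p = 0.597, and 0.59 without cow 489215, adjusted p = 0.178). CLCF1, another ligand that uses LIFR and IL6ST, was at 59.7, 61.0 and 29.9 and at 122, 33.3 and 185. The CLCF1 groups overlapped through cow 489215, and without it the log2 difference was 1.63 (limma adjusted p = 0.0407), with SF/SCL higher.

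Of 5 other receptors, 3 were tested and 0 passed with or without cow 489215. IL27RA, which pairs with IL6ST for interleukin 27, had a log2 difference of -0.15, CNTFR of 0.46 and CSF3R of -0.59, with limma adjusted p-values of 0.795 to 0.882. CSF3R was at 12.6, 11.3 and 9.66 in LF/LCL cows and at 6.84, 9.32 and 5.42 in SF/SCL cows, low values whose groups did not overlap.

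Of the kinases, other STAT factors and adaptors 15 were tested. JAK1, the kinase bound to IL6ST, had a log2 difference of -0.20 with all cows (limma adjusted p = 0.876) and -0.43 without cow 489215, with LF/LCL higher (adjusted p = 0.0252). The adaptor SHC1 had log2 differences of -0.14 in both fits.

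The 17 genes of other inhibitors and receptor shedding were all tested. SOCS2, a SOCS gene known for restraining growth hormone signalling, was at 3083, 3166 and 2988 in LF/LCL cows and at 1623, 6533 and 1500 in SF/SCL cows. Cows 856 and 97 were at about the same low level and cow 489215 was above all others, unlike SOCS3, for which it was low. The log2 difference of SOCS2 was -0.29 with all cows (limma adjusted p = 0.916) and -0.98 without cow 489215 (adjusted p = 0.00251).

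ADAM10, a protease that sheds IL6R, was at 2897, 3250 and 2955 in LF/LCL cows and at 2364, 1152 and 2241 in SF/SCL cows, without overlap. Its log2 difference was -0.73 (limma unadjusted p = 0.0483, adjusted p = 0.573) and -0.40 without cow 489215 (adjusted p = 0.0324). SOCS5 did not pass in either fit (log2 -0.18 and -0.33). Named after their values were seen, STAT6 and the inhibitors PTPRT, PIAS1 and PTPN6 also passed without cow 489215 with SF/SCL higher, and PIAS3, an inhibitor of STAT3, with LF/LCL higher.

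STAT3 response genes gave 20 of 28 tested. The plasma protease inhibitor gene A2M was at 20875, 25414 and 42738 in LF/LCL cows and at 16380, 13251 and 13827 in SF/SCL cows, without overlap (log2 -0.97, limma unadjusted p = 0.0166, adjusted p = 0.448). Without cow 489215 the A2M difference was -0.91 (limma adjusted p = 0.0758). MUC1, an epithelial mucin gene, had a log2 difference of 0.89 with overlapping groups (limma unadjusted p = 0.0499, adjusted p = 0.577) and one of 0.53 without cow 489215 (adjusted p = 0.163). The acute phase gene SAA3 was at 28687, 25079 and 27334 in LF/LCL cows and at 11499, 75077 and 39680 in SF/SCL cows, where it had both the lowest and the highest value, like IL6 in the same cows. MCL1, a survival gene, had log2 differences of 0.11 and -0.13. Without cow 489215, 5 of the 20 passed with limma, TNFAIP3, CCND1 and HIF1A higher in SF/SCL and TIMP1 and PIM3 higher in LF/LCL, named after their values were seen. In the same fit 18.2% of all genes passed, 10.3% with SF/SCL higher and 7.92% with LF/LCL higher.

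Immediate early genes, which many stimuli and also the handling of tissue induce within minutes, were set beside SOCS3 because SOCS3 can be induced as quickly. Of 18 tested, 2 with LF/LCL higher had an unadjusted p under 0.05 with all cows, and 1 with SF/SCL higher, beside 4.48% and 4.19% of all genes. EGR3 was at 20.9, 29.1 and 25.5 in LF/LCL cows and at 3.80, 3.99 and 3.25 in SF/SCL cows (log2 -2.47, limma adjusted p = 0.351), and EGR2 at 36.6, 24.4 and 13.2 and at 5.32, 3.99 and 6.50 (log2 -1.95, adjusted p = 0.405). In SF/SCL cows these values rest on 5, 3 and 3 reads for EGR3 and on 7, 3 and 6 for EGR2. Both lay the way of SOCS3 without overlap, cow 489215 included, and EGR3 passed without that cow (log2 -2.52, limma adjusted p = 0.0160) while EGR2 did not (log2 -1.79, adjusted p = 0.0743). CYR61, named after its values were seen, also passed in that fit with LF/LCL higher (log2 -0.67, limma adjusted p = 0.0338). In that fit 4 genes of the list had an unadjusted p under 0.05 with LF/LCL higher and 1 with SF/SCL higher, beside 15.9% and 18% of all genes.

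DUSP1 lay the other way, at 3071, 3770 and 3541 in LF/LCL cows and at 4302, 8184 and 5807 in SF/SCL cows (log2 0.77, limma adjusted p = 0.480, and 0.54 without cow 489215, adjusted p = 0.0590). JUN had log2 differences of 0.34 with all cows and 0.10 without cow 489215, and CTGF of 0.07 and -0.33. The median of the 18 genes was -0.06, and -0.23 without that cow, against -0.81 and -0.70 for SOCS3, and the part of tissue handling in the SOCS3 values was not tested.

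**Figure D4:**
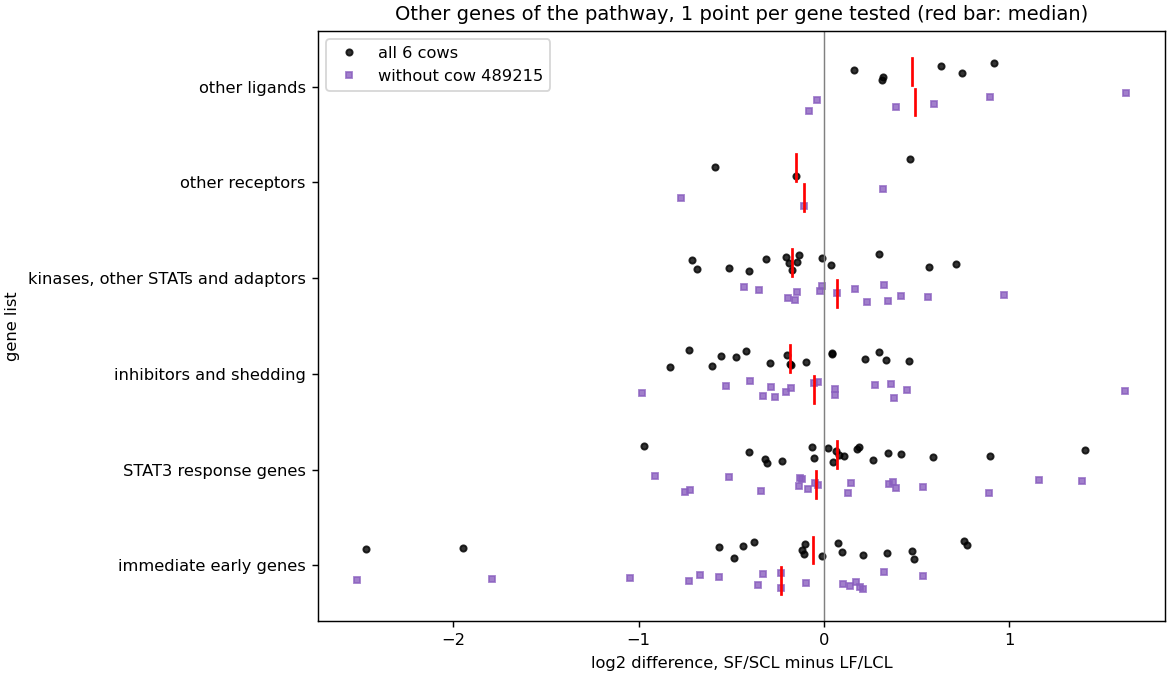
Log2 difference, SF/SCL minus LF/LCL, of each further gene tested with all 6 cows, by list, for all 6 cows (black circles) and without cow 489215 (purple squares), with red bars at the medians. Medians lie near 0 in the larger lists, and EGR3 (-2.47) and EGR2 (-1.95), both with few reads in SF/SCL cows, are the 2 points farthest to the left with all cows.

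Full sums of the markers of fibroblasts, secretory and general epithelium, leukocytes, mesothelium, and nerve and Schwann cells did not overlap between the groups. Those of smooth muscle, endothelium, ciliated cells and erythrocytes overlapped. With the most abundant gene of each list left out, leukocyte, mesothelial, and nerve and Schwann cell markers overlapped, and ciliated cell markers did not. The 8 fibroblast markers summed to 113096, 143148 and 150105 normalized counts in LF/LCL cows and to 70246, 107812 and 70711 in SF/SCL cows, without overlap and in the direction of OSMR and SOCS3. Secretory and general epithelial markers summed to 40560, 30397 and 27937 and to 312714, 60915 and 374092, in the direction of STAT3, but OVGP1 made up 71.1% of the sum. Without OVGP1 they were 25987 to 40273 in LF/LCL and 40920 to 60186 in SF/SCL. Of the 8 genes of this list that were tested, 5 had a positive log2 difference and 3 a negative one. The 3, named after their values were seen, were MSX1 (-1.38), ELF3 (-0.54) and CLDN4 (-0.07). Without cow 489215, 3 passed with SF/SCL higher and 1, MSX1, with LF/LCL higher (log2 -2.55, limma adjusted p = 0.0197), beside 10.3% and 7.92% of all genes.

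Ciliated cell markers ran from 33298 to 45560 in LF/LCL and from 44775 to 61961 in SF/SCL. Cow 489215 was the lowest of its group, as it was for LIF, LIFR, IL6R, IL6ST, OSMR and SOCS3. Its ciliated sum lay inside the LF/LCL range, while its IL6R value lay below that of each LF/LCL cow. Without CAPS, which made up 39.1% of the sum, ciliated cell markers were 16747 to 24156 in LF/LCL and 25658 to 45382 in SF/SCL. Mesothelial markers were 2872 to 3327 in LF/LCL cows, 28192 and 27411 in cows 856 and 97 and 3513 in cow 489215, with 60.9% of the sum from MSLN. LRRN4 of the same list, named after its values were seen, went the other way, with a log2 difference of -4.91 without cow 489215 (limma adjusted p = 0.00540). Leukocyte markers without CD74, which made up 79.1% of their sum, were 3295 to 5642 in LF/LCL and 3556 to 4929 in SF/SCL. Nerve and Schwann cell markers came to 98.5% from S100B, and those of endothelium were 14793 to 18988 in LF/LCL and 12143 to 18571 in SF/SCL. The part of cell composition in the values of the 9 genes was not tested.

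**Figure D5:**
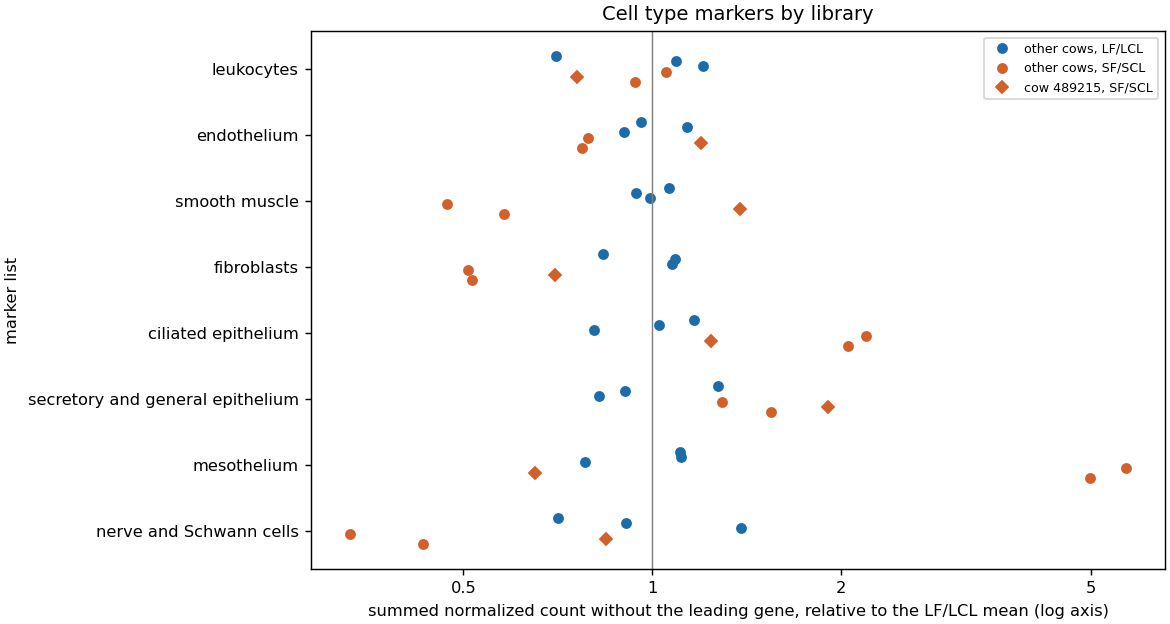
Summed normalized counts of cell type markers in each library, without the most abundant gene of each list, relative to the mean of the LF/LCL cows on a log axis, with cow 489215 as a diamond. Fibroblast markers are below the LF/LCL cows in all 3 SF/SCL cows, and mesothelial markers are above them in cows 856 and 97 but not in cow 489215.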

How the data were processed

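Total RNA of 6 isthmus samples, 1 per cow, was made into TruSeq libraries from polyadenylated RNA and sequenced as paired ends. Submitters' processing notes name CASAVA 1.8.2, TopHat2 2.0.8, Bowtie2 2.1.0, SAMtools 0.1.18, HTSeq 0.5.4p2 and DESeq 1.12.1. The reads of Bos indicus cows were aligned to a Bos taurus assembly, and the strand setting of the counting is not given in the sources used here. The deposited signal values are counts per Ensembl gene that the authors divided by DESeq size factors. All 147696 values (100%) were whole multiples of 1 step per library, within 0.0006 normalized counts, so reads were recovered for the count tests.

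Genes whose mean over the libraries exceeded both 5 and the SD were tested with limma 3.58.1 (R 4.3.3, trend and robust) on log2(value + 1). Benjamini-Hochberg adjustment was used with a threshold of 0.05. The change of low genes depends on the constant added and on the model. For LIF, -1.54 with limma became -1.87 with 0.5 added and -0.81 with 5 added. It was -0.81 with edgeR (TMM) and -0.84 with DESeq2. The script was tested on simulated data. Alternatives were edgeR 4.0.16, DESeq2 1.42.0, limma-voom, other pseudocounts (0.5 and 5), filters and scalings, and each cow left out. Scaling by total reads, and the other tools without cow 489215, were chosen after seeing the data. With 10 divisions of 6 cows, an exact test reaches 0.1 at best. Limits from counts cover counting error only, as reads carried no molecular identifiers.

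The genes and lists were chosen with earlier results of these data known. Named are all 9 genes, the 3 most abundant of each further list and those with an unadjusted p under 0.05, and the 3 closest to each gene, except a few that are not reported here. Tables and figures were made in Python 3.11.15. Sequences and coordinates are not given, as no genome of the build was used. RefSeq served only for neighbouring genes.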

Additional observations from a re-analysis of the deposited data

How the results depend on the processing

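The counts of genes called turned on cow 489215. All genes past the threshold numbered 0 with limma, 416 with DESeq2, and without cow 489215 2827 with limma, 2805 with edgeR, 3938 with DESeq2, 2816 with TMM rescaling and 2894 with scaling by total reads (0 to 2827 when each cow was left out). Of the 9 genes 1, IL6R, was called in each of the 5 fits without cow 489215 (0 to 1 when each cow was left out). Of the other pathway genes 15 were called in these fits, except 18 with DESeq2 (0 to 15 when each cow was left out).

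The direction of LIF (-2.51 to -0.27), IL11RA (-0.45 to -0.09), OSMR (-0.88 to -0.39), STAT3 (0.16 to 0.27) and SOCS3 (-1.02 to -0.66) held in the alternatives run, as log2 differences, and none of these 5 passed in any. LIF could not be fitted with a filter of at least 15. IL6 ran from -0.79 to 1.22 when each cow was left out. It also turned negative with scaling by total reads (-0.030), limma-voom (-0.16), and without cow 489215 with edgeR (-0.37), DESeq2 (-0.35), TMM rescaling (-0.79) and total reads (-0.76). LIFR ran from -1.16 to 0.12 when each cow was left out, and without cow 489215 was 0.094 with edgeR, 0.091 with DESeq2, 0.12 with TMM rescaling and 0.16 with total reads. IL6ST ran from -0.75 to 0.31, and in the same 4 fits was 0.30, 0.30, 0.31 and 0.35. IL6R ran from -0.57 to 1.15 when each cow was left out, with -0.07 without cow 617, -0.57 without cow 856 and -0.17 without cow 97, and was 1.16, 1.16, 1.15 and 1.19 in the same 4 fits. With all cows the size of these differences also turned on the model. IL6R was 0.14 with limma, 0.65 with edgeR (TMM) and 0.67 with DESeq2, and IL6 was 0.06, 0.60 and 0.66. LIFR was -0.68, -0.37 and -0.35, and IL6ST was -0.39, -0.14 and -0.12, in the same order. None of these genes was called in those fits. Scaling by total reads shifted the median of all genes by -0.09. No paired analysis was possible because the cow numbers differ between the groups. With 3 cows per group, 1 of them far from the rest, the intervals of LIF, IL6, LIFR, IL6R and IL6ST with all cows span several fold.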
